A study of Macaca mulatta and Mus musculus and Rattus norvegicus with 12 samples.

Results

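The adipocyte genes examined here were ADIPOQ and 9 others, LEP, CFD, FABP4, LPL, PLIN1, PLIN4, CIDEC, PPARG and CEBPA, in RNA-Seq data from osteocyte-enriched bone of the calvaria (skull vault) and the tibia of mouse, rat and rhesus macaque. ADIPOQ was selected on its log2 ratios of calvaria to tibia, which had been called in opposite directions in mouse and macaque, and the other 9 were added as known adipocyte genes when results for these libraries were already in hand. The ratios between sites in these species are therefore given below as description, without a p-value. A row belonged to a gene when the symbol at the start of its description matched, whatever the case, and symbols are written in capitals for all 3 species. All 10 genes had a row in mouse and in rat, and 7 of 10 had a row in macaque, among 13982 symbols found in all 3 species. PLIN1, CFD and CEBPA had no macaque row under their own symbol. The main tests were run on 10536 symbols with at least 1 read in each species, where macaque rows under a LOC identifier were matched by the symbol that RefSeq gives them. Of the 10 genes, 5 met this condition under their own symbol, and 8 of 10 met it when the LOC rows of PLIN1, CFD and CEBPA were counted, so that 8 were tested in mouse.

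Adipocytes store triglyceride in a lipid droplet and release hormones. Within bone they lie in the marrow, next to a network of stromal reticular cells that supports blood formation. Those stromal cells are known in mice to express Adipoq and Lpl without carrying a large lipid droplet, FABP4 is also made by capillary endothelium and some macrophages, and CEBPA by precursors of neutrophils. In a bulk sample of bone, fewer cells of a type and less RNA per cell cannot be told apart.

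Mouse bone came from 4-month-old female C57BL6 animals, as pools of 3 mice per library, 2 for calvaria (M4, M8) and 2 for tibia (M5, M7). Rat bone came from 6-month-old female Wistar animals, with 1 calvaria library (R1) and 1 tibia library (R3), each a pool of 2 rats, so rat values have no replicates. Macaque bone came from female animals, 1 animal per library, 3 for calvaria (named G1, G3 and T1) and 3 for tibia (named G2, G4 and T2). The labels give the macaque age as 4 to 6 months and the methods of the study as 4 to 6 years, and this was not resolved. The labels name no transgene and no treatment. Periosteum was removed and bone was digested briefly with collagenase at both sites, marrow was spun out of the rodent tibias, the diploe (the marrow space of the skull) was avoided in the rodents, and macaque bone was cut with a hacksaw. Reads on named genes numbered 13934813 to 16826535 in mouse, 12233256 and 14255423 in rat, and 7951585 to 10342459 in macaque. Levels are CPM, the reads of a gene per 1000000 reads on the tested symbols, scaled by TMM (trimmed mean of M-values) factors in mouse and macaque. In mouse and macaque, calls required a Benjamini-Hochberg adjusted p under 0.2 in the quasi-likelihood test of edgeR, together with a fold change above 1.1. Intervals and bounds cover counting error only, and rat levels and ratios used library size without TMM factors.

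The label of the tissue was checked against osteocyte markers. The summed level of DMP1, MEPE, PHEX, SOST, FGF23 and PDPN was 1520 to 2745 CPM in mouse calvaria and 11223 to 15246 in mouse tibia. It was 7529 to 8658 in macaque calvaria and 11692 to 26573 in macaque tibia, and 822 in rat calvaria against 11162 in rat tibia. Most of the macaque sum was MEPE, with means of 7682 CPM in calvaria and 20286 in tibia. Macaque SOST was also higher in tibia, whereas DMP1, PHEX and PDPN overlapped between the macaque sites. In rat most of the sum was MEPE (3641 reads in calvaria and 45587 in tibia) and DMP1 (2243 and 34033). Rat SOST had only 5 reads in calvaria and 15 in tibia, and FGF23 had 0 at both sites. Markers of other cells were also present. Those of neutrophils and their precursors summed to 136508 to 181718 in mouse calvaria, 83742 to 95175 in mouse tibia, 55561 to 90843 in macaque calvaria and 10725 to 21376 in macaque tibia.

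ADIPOQ encodes adiponectin, a hormone that raises insulin sensitivity. In the mouse, where the gene lies at chr16:23146536-23158028 on the plus strand (GRCm38), ADIPOQ received 203 and 113 reads in calvaria (M4 and M8) and 1197 and 737 in tibia (M5 and M7). These were 19.3 and 12.6 CPM in calvaria, and tibia stood at 99.6 and 74.1. Both tibia libraries lay above both calvaria libraries, and the log2 ratio of calvaria to tibia was -2.44 ± 0.31 (SE, 2 libraries per site), which was called and corresponds to a 5.44-fold higher level in tibia. Libraries of the same site differed by 1.34-fold in tibia and 1.54-fold in calvaria. ADIPOQ was the 1 gene called of the 8 tested in mouse. Over all tested symbols, 0.304% were called and 0.294% were called higher in tibia. ADIPOQ had been selected on its calls in mouse and macaque, so its calls are description beside such shares. It lost the call when M5 or M7 was left out, with log2 ratios of -2.21 and -2.63, and when the tested symbols were limited by filterByExpr or to those with reads in every library (-2.44 and -2.45).

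In the macaque the direction of ADIPOQ was the opposite. The gene received 37, 34 and 15 reads in calvaria (G1, G3 and T1) and 10, 6 and 18 in tibia (G2, G4 and T2). Scaled to depth, these were 6.73, 6.53 and 2.72 CPM in calvaria and 1.65, 1.04 and 2.63 in tibia. All 3 calvaria libraries lay above all 3 tibia libraries, but T1 and T2 were separated only by 2.72 against 2.63. The log2 ratio was 1.56 ± 0.58 (SE, 3 libraries per site), which was called, and the background was higher than in mouse, with 26.7% of all tested symbols called and 14.1% called higher in calvaria. The difference rested on the G libraries, in which ADIPOQ was 4.94-fold higher in calvaria, against 1.03-fold in the T libraries. Leaving out G1, G3, G2 or G4 ended the call, with log2 ratios of 1.35, 1.39, 1.51 and 1.30 respectively, and leaving out T1 or T2 did not (1.87 and 1.97). The macaque gene model of ADIPOQ had 734 bases of exon and spanned 1655 bases, against 14638 in a newer RefSeq annotation, so it may not hold all exons of the gene.

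Rat ADIPOQ received 137 reads in calvaria and 205 in tibia, which were 15.8 and 25.8 CPM. The level was 1.63-fold higher in tibia (95% interval of the counts 1.31 to 2.04), the direction of mouse, but short of the log2 threshold of 2 used for rat. The difference between the macaque and mouse log2 ratios of ADIPOQ was 4.02 ± 0.63 (SE, 10 libraries) in a fit with a species by site term, and it was called, as were 5.0% of all tested symbols, or 3.51% with the macaque ratio above the mouse ratio.

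**Figure D1:**
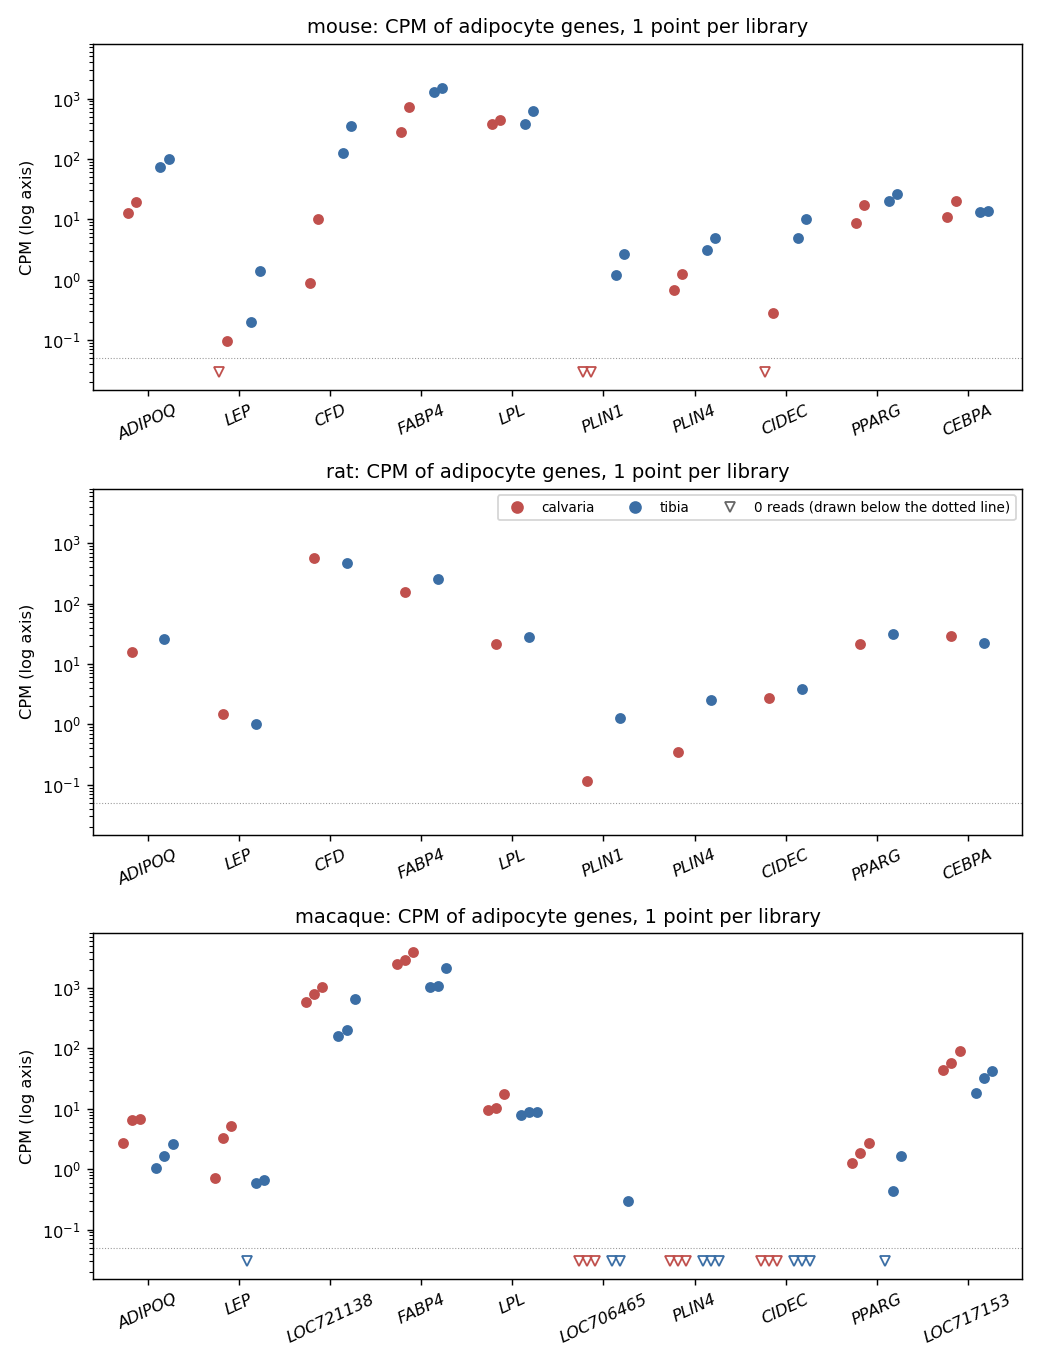
CPM (log axis) of each adipocyte gene in the calvaria (red) and tibia (blue) libraries of mouse, rat and macaque, 1 point per library, with libraries at 0 reads drawn as open triangles below the dotted line. In mouse ADIPOQ lay at 12.6 and 19.3 in calvaria and at 74.1 and 99.6 in tibia, whereas in macaque it lay at 2.72 to 6.73 in calvaria and 1.04 to 2.63 in tibia.

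LEP encodes leptin, the hormone that reports fat stores to the brain. Mouse LEP (chr6:29060220-29073877, plus strand) was near the limit of detection, with 1 and 0 reads in M4 and M8 and 17 and 2 reads in M5 and M7. The ratio of tibia to calvaria was 16.9, with a counting interval of 2.68 to 701, and 1 tibia library held 17 of the 19 tibia reads. Macaque LEP received 18, 27 and 4 reads in G1, G3 and T1 and 4, 0 and 4 reads in G2, G4 and T2, or 3.28, 5.18, 0.724 and 0.659, 0, 0.584 CPM. The calvaria libraries lay above the tibia libraries and the log2 ratio of 2.80 ± 1.00 was called, although not when G3 was left out (2.19). LEP was 12.8-fold higher in calvaria in the G libraries and 1.24-fold higher in the T libraries. Rat LEP received 13 reads in calvaria and 8 in tibia, a ratio of 1.49 whose interval of 0.571 to 4.14 includes 1.

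CFD encodes complement factor D (adipsin), a serine protease that fat secretes into plasma. In mouse its libraries of 1 site differed widely, with 106 and 8 reads in M4 and M8 and 4259 and 1237 reads in M5 and M7, or 10.1 and 0.890 CPM in calvaria and 354 and 124 in tibia. The tibia libraries lay above the calvaria libraries, and the log2 ratio of -5.42 ± 1.13 was the lowest among the genes with more than 3 reads in calvaria. It was not called among the tested symbols, with an 11.3-fold difference between the calvaria libraries and a 2.85-fold difference between the tibia libraries. In rat, CFD was the most abundant of the 10 genes per length, and it was close to equal at both sites, with 5000 reads in calvaria and 3734 in tibia (1.23-fold higher in calvaria, interval 1.17 to 1.28). The macaque table held no row named CFD. RefSeq gives that name to LOC721138, which the table describes as a transmembrane protease, but the table's model spans 10769 bases against 3770 for CFD in RefSeq. The neighbouring neutrophil elastase gene, ELANE, also had no row, and the stretch from ELANE to the end of CFD measures 11933 bases. The 13069 calvaria and 6726 tibia reads of LOC721138 could therefore not be assigned to CFD, and its log2 ratio of 1.23 ± 0.40 is a value of that row only.

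FABP4, the fatty acid carrier of fat cells, was the most abundant of the genes per length in mouse and macaque, and it followed the pattern of ADIPOQ. In the mouse (chr3:10204088-10208576, minus strand) it received 7691 and 2464 reads in M4 and M8 and 17833 and 12957 reads in M5 and M7, or 731, 274, 1484 and 1303 CPM. The sites did not overlap, and the log2 ratio was -1.47 ± 0.47, which was not called. Macaque FABP4 stood at 2860, 3891 and 2505 CPM in G1, G3 and T1 and 1079, 1031 and 2154 in G2, G4 and T2. The sites did not overlap here either, and the log2 ratio of 1.12 ± 0.26 was called in the main fit and in all 15 alternatives. The G libraries differed by 3.20-fold between sites and the T libraries by 1.16-fold. Rat FABP4 was 1.61-fold higher in tibia (1355 and 1994 reads, interval 1.50 to 1.72). The macaque and mouse log2 ratios of FABP4 differed by 2.61 ± 0.57, which was called.

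LPL encodes lipoprotein lipase, which frees fatty acids from circulating triglyceride. In the mouse (chr8:68880491-68907448, plus strand) it stood at 434 and 372 CPM in M4 and M8 and at 633 and 378 in M5 and M7, and the sites overlapped. The log2 ratio was -0.33 ± 0.30 and turned to 0.10 when M5 was left out. Macaque LPL stood at 17.7, 9.41 and 10.3 CPM in calvaria and 8.74, 8.82 and 8.03 in tibia. These did not overlap, and the log2 ratio of 0.55 ± 0.35 was not called. Rat LPL was 1.31-fold higher in tibia (184 and 221 reads, interval 1.07 to 1.60). With TMM factors its log2 ratio was -0.19 in place of -0.39, and the median rat log2 ratio of all tested symbols was -0.20 without them.

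The 3 lipid droplet genes had few reads. PLIN1 encodes the perilipin that coats the droplet of fat cells and gates lipolysis, PLIN4 another perilipin, and CIDEC a protein that fuses droplets into larger ones. PLIN1 (chr7:79720218-79732903, minus strand) had no read in either mouse calvaria library and 32 and 12 reads in M5 and M7, so its level was at least 6.25-fold higher in tibia against a floor of 3 reads per library. CIDEC (chr6:113424634-113435760, minus strand) had 3 and 0 reads in M4 and M8 and 123 and 48 reads in M5 and M7, a ratio of 50.6 (interval 17.0 to 248). PLIN4 (chr17:56100591-56109803, minus strand) had 13 and 6 reads in calvaria and 58 and 31 in tibia. Its exons overlap those of Hdgfl2 on the other strand, and counting ignored strand. Its log2 ratio of -2.04 ± 0.70, from the fit over all 22339 mouse symbols, was not called. For all 3 genes both mouse tibia libraries thus stood above both calvaria libraries, at levels of 10.2 CPM or less.

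In rat the same 3 genes had more reads in tibia. PLIN1 had 1 read in calvaria and 10 in tibia (10.9-fold, interval 1.55 to 474), PLIN4 had 3 and 20 (7.28-fold, interval 2.16 to 38.3) and CIDEC had 24 and 31 (1.41-fold, interval 0.802 to 2.51). PLIN1 and PLIN4 were the 2 of 10 genes past the rat threshold. PLIN4 was not among the tested symbols, so 1 of the 8 tested genes passed it. Of all tested symbols 7.16% passed it, or 6.39% counting only those higher in tibia. With 5 reads added in place of 1, neither PLIN1 nor PLIN4 passed it. In macaque, PLIN4 and CIDEC had rows but no read in any of the 6 libraries. LOC706465, described as perilipin-1-like and named PLIN1 by RefSeq, had 2 reads in T2 and none in the other 5 libraries. The macaque models of LOC706465, PLIN4 and CIDEC spanned 7962, 11788 and 7788 bases, against 15456, 17580 and 11455 in the newer RefSeq annotation. FASN, the fatty acid synthase, CSF1 and GPD1 also had rows with 0 reads in all 6 macaque libraries. The near absence of reads on the 3 lipid droplet genes is therefore a value of these rows, and low expression and incomplete gene models cannot be told apart.

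PPARG and CEBPA encode the transcription factors that drive and maintain fat cell differentiation. Mouse PPARG (chr6:115360951-115490399, plus strand) stood at 16.9 and 8.68 CPM in M4 and M8 and at 25.9 and 19.8 in M5 and M7. The sites did not overlap, but the log2 ratio of -0.83 ± 0.40 was not called. Macaque PPARG had 10, 14 and 7 reads in calvaria and 10, 0 and 3 in tibia, with sites that overlapped and a log2 ratio of 1.44 ± 1.01 that was not called. Its macaque model spanned 68789 bases, against 149452 in the newer RefSeq annotation. Rat PPARG was 1.49-fold higher in tibia (185 and 253 reads, interval 1.23 to 1.82).

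CEBPA was the exception in mouse (chr7:35119293-35121928, plus strand). It stood at 10.7 and 19.9 CPM in M4 and M8 and 13.4 and 13.6 in M5 and M7, so that the calvaria libraries lay on either side of the tibia libraries. The log2 ratio was 0.18 ± 0.37, and it was -0.33 without M8. The antisense gene Gm45091 overlaps its exon and cannot be told apart in counts without strand. Rat CEBPA was 1.31-fold higher in calvaria (251 and 175 reads, interval 1.08 to 1.60). In macaque, LOC717153, described as CEBPA-like and named CEBPA by RefSeq, stood at 44.2, 90.4 and 57.4 CPM in calvaria and at 18.5, 32.4 and 42.6 in tibia. The sites did not overlap and the log2 ratio of 1.04 ± 0.30 was called, although not when G3 was left out (0.71). The row was 2.65-fold higher in calvaria in the G libraries and 1.35-fold higher in the T libraries.

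**Figure D2:**
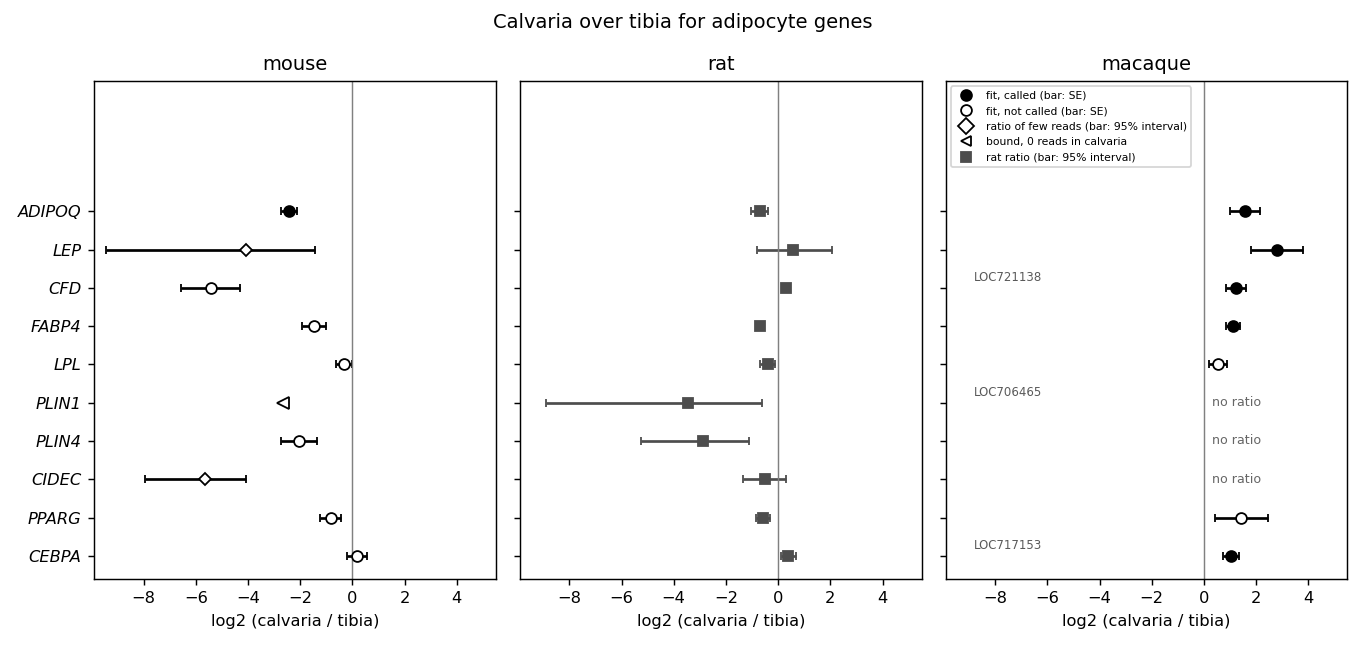
Log2 ratio of calvaria to tibia for each gene in mouse, rat and macaque. Circles are fitted values with their SE, filled where called, diamonds and squares are ratios of reads with 95% counting intervals, and the open triangle is a bound for a gene without reads in mouse calvaria. ADIPOQ lay at -2.44 in mouse and 1.56 in macaque. The macaque rows of CFD, PLIN1 and CEBPA are drawn under their LOC identifiers.

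Across the genes, 7 of 8 tested in mouse had a log2 ratio below 0, with CEBPA as the exception, and the median was -1.96 (-1.43 with LEP and PLIN1 set to 3 reads in calvaria), against 0.04 over all tested symbols. All 10 genes had reads in mouse, and for 8 of 10 both tibia libraries stood above both calvaria libraries. This held for 6 of the 8 tested genes and for 20.8% of all tested symbols. In the fit over all 22339 mouse symbols, 5 of 10 genes were called (ADIPOQ, FABP4, PLIN1, CFD and CIDEC), all higher in tibia, and the background there was 2.28%, or 1.57% higher in tibia. In macaque all 5 genes tested under their own symbol had a log2 ratio above 0. Their median was 1.44, against 0.01 over all tested symbols. ADIPOQ, LEP and FABP4 were called, where 26.7% of all tested symbols were called and 14.1% were called higher in calvaria. Of these 5, 4 were higher in every calvaria library than in every tibia library, which held for 16.0% of all tested symbols. In rat, 7 of 10 genes were higher in tibia, counting PLIN4 and CIDEC, which were not among the tested symbols. LEP, CFD and CEBPA were higher in calvaria. Of all tested symbols, 63.3% were higher in rat tibia. The median rat log2 ratio was -0.53, or -0.48 over the 8 tested genes, against -0.20 over all tested symbols. The 5 genes with reads in each species were below 0 in mouse and above 0 in macaque, as were 19.7% of all tested symbols. Of these 5, only LEP was above 0 in rat. ADIPOQ had been selected on its calls, so its part in the mouse and macaque counts was known beforehand. The test of the difference between the species was called for ADIPOQ, LEP (6.46 ± 2.02) and FABP4, and not for LPL (0.90 ± 0.41) or PPARG (2.30 ± 1.04). Over all tested symbols, 5.0% were called in that test, and 3.51% with the macaque ratio above the mouse ratio. All macaque libraries were sequenced on another lane than the rodent libraries and counted on another annotation, so species, lane and annotation cannot be told apart.

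Levels were compared between genes as CPM divided by the exonic length in kilobases (RPKM). In mouse tibia the order was FABP4 (1587 ± 145, SD, n = 2), CFD (259 ± 176), LPL (124 ± 44.0), ADIPOQ (70.5 ± 14.6), PPARG (7.64 ± 1.43), CEBPA (5.12 ± 0.049), CIDEC (4.32 ± 2.19), PLIN1 (1.01 ± 0.54), PLIN4 (0.57 ± 0.17) and LEP (0.25 ± 0.26). The libraries of CFD and LPL, of CEBPA and CIDEC, and of PLIN1 and PLIN4 overlapped, so these neighbours did not differ beyond their spread. In mouse calvaria FABP4 (573 ± 368) and LPL (98.5 ± 10.8) stood above ADIPOQ (12.9 ± 3.87), and ADIPOQ overlapped CFD (5.94 ± 7.04). ADIPOQ stood above 60.8% of the tested symbols per length in mouse calvaria and above 91.8% in mouse tibia. In rat the order began with CFD (690 in calvaria and 563 in tibia) and FABP4 (277 and 445), and ADIPOQ stood at 10.6 and 17.4. In macaque FABP4 (2795 ± 652, n = 3, in calvaria and 1287 ± 575 in tibia) stood above 99.8% and 99.7% of the tested symbols. Macaque ADIPOQ (7.26 ± 3.08 and 2.41 ± 1.09) lay close to LPL (5.93 ± 2.15 and 4.06 ± 0.21), with overlap in calvaria and none in tibia. The ranks of the 2 most abundant genes thus differed between species, whereas the droplet genes and LEP lay at the bottom in mouse and rat.

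The receptors of these hormones were examined next, chosen for their role after values of the lists that hold them had been seen. CDH13 (T-cadherin, which binds adiponectin) was higher in tibia in each species. It stood at 9.32 and 5.45 CPM in M4 and M8 and at 34.0 and 25.3 in M5 and M7, with a mouse log2 ratio of -2.00 ± 0.37 (adjusted p = 0.347 in edgeR's quasi-likelihood test over the tested symbols, and 0.0177 over all mouse symbols). In macaque CDH13 stood at 22.6 to 36.5 in calvaria and 43.3 to 66.5 in tibia (log2 ratio -0.79 ± 0.24, adjusted p = 0.0470 in edgeR's quasi-likelihood test). Rat CDH13 had 51 reads in calvaria and 436 in tibia, a log2 ratio of -3.20.

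LEPR, the leptin receptor and a marker of marrow stromal cells, was likewise higher in tibia, with log2 ratios of -1.23 ± 0.26 in mouse, -0.42 in rat and -0.85 ± 0.19 in macaque. Its adjusted p in edgeR's quasi-likelihood test was 0.420 in mouse over the tested symbols, 0.0578 over all mouse symbols and 0.00973 in macaque. ADIPOR1 and ADIPOR2, the adiponectin receptors that signal, were not called in mouse or macaque (log2 ratios from -0.08 to 0.33). The nearest was ADIPOR1 in macaque, at 673 to 726 CPM in calvaria and 494 to 630 in tibia (adjusted p = 0.209 in edgeR), which DESeq2 and the replicate block called. In macaque, then, CDH13 and LEPR lay lower in calvaria, while ADIPOQ and LEP lay higher there.

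**Figure D3:**
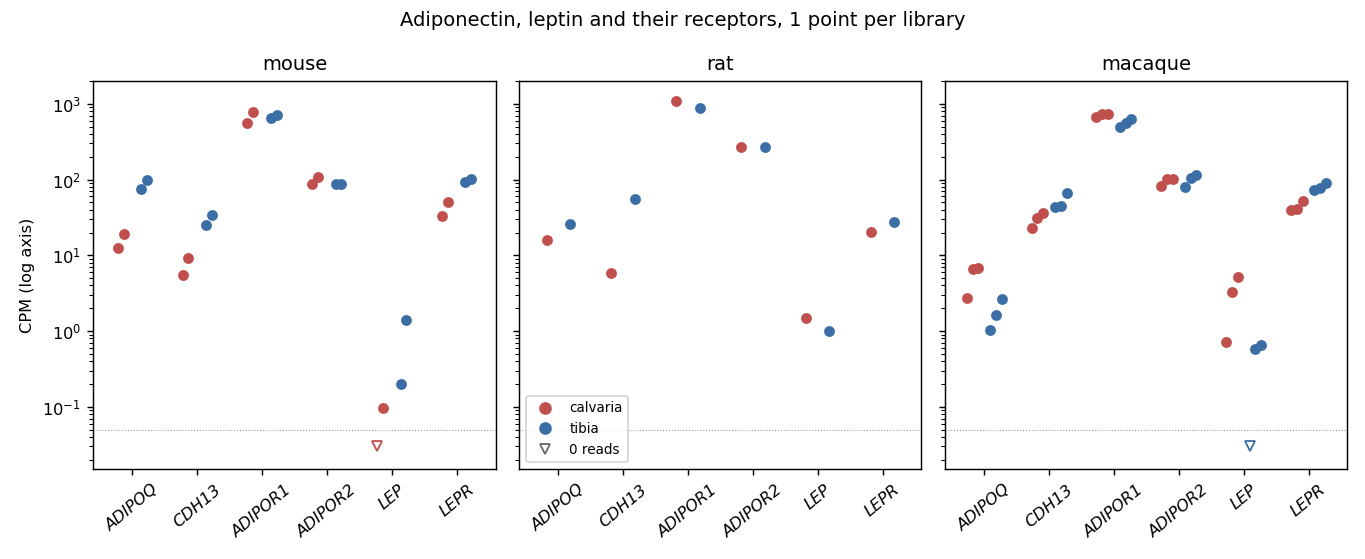
CPM (log axis) of ADIPOQ and its receptors CDH13, ADIPOR1 and ADIPOR2 and of LEP and its receptor LEPR, 1 point per library, calvaria in red and tibia in blue. CDH13 and LEPR were higher in all tibia libraries of each species, and in macaque CDH13 lay at 22.6 to 36.5 in calvaria and 43.3 to 66.5 in tibia.

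Other genes of fat biology were taken as 6 lists that hold 102 symbols, of which 73 were tested. In mouse none of the 73 was called in edgeR's quasi-likelihood test over the tested symbols, where 0.304% of all tested symbols were called. An unadjusted p under 0.05 was found for 18, but the share of all tested symbols with such a p is not given here. The 18 can therefore not be read as more than usual. DESeq2 called 11, the exact test of edgeR 13 and the replicate block 1, where 282, 342 and 63 of all tested symbols were called. In the fit over all mouse symbols 14 of 97 were called, and each was higher in tibia, against 2.28% of all symbols called and 1.57% called higher in tibia. They were SCD1, CDH13, EBF2, RBP4, GPIHBP1, LEPR, CXCL12, THRSP, KITL, PCK1, CD36, AQP7, RETN and FOXC1, named after their values were seen. SCD1, which desaturates fatty acids, had 288 and 167 reads in M4 and M8 and 3054 and 1380 in M5 and M7 (log2 ratio -3.10 ± 0.34, adjusted p = 0.000355 in edgeR's quasi-likelihood test). EBF2, a factor of adipogenic commitment, had a log2 ratio of -2.71 ± 0.50 (adjusted p = 0.0178 in edgeR), and the retinol carrier RBP4 one of -1.93 ± 0.40 (adjusted p = 0.0380 in edgeR). RETN, which encodes the mouse adipokine resistin, had 0 and 6 reads in M4 and M8 and 78 and 29 in M5 and M7.

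In macaque 21 of the 73 tested genes were called, 11 higher in calvaria and 10 higher in tibia, where 26.7% of all tested symbols were called and 14.1% were called higher in calvaria. The counts of the single lists below stand against the same shares. Of the lipid droplet and lipolysis genes 1 of 14 was called, the monoglyceride lipase MGLL (log2 ratio 0.52 ± 0.24, higher in calvaria, adjusted p = 0.190 in edgeR's quasi-likelihood test). The fatty acid uptake and triglyceride synthesis list had 5 of 17 higher in calvaria and 1 higher in tibia. Among them ANGPTL4, an inhibitor of lipoprotein lipase, had a log2 ratio of 1.44 ± 0.27 (adjusted p = 0.00266), and DGAT2, which makes triglyceride, one of 1.24 ± 0.33 (adjusted p = 0.0230), both in edgeR. ACACB, an acetyl-CoA carboxylase, was the one higher in tibia (-1.23 ± 0.38, adjusted p = 0.0453 in edgeR). The median of this list was 0.11 in macaque and -0.10 in mouse, against 0.01 and 0.04 over all tested symbols.

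The regulators of adipogenesis had 3 of 22 higher in macaque calvaria and 4 higher in tibia. KLF5, which promotes adipogenesis, and DLK1, which restrains it, were both higher in calvaria (log2 ratios 0.84 ± 0.18 and 1.99 ± 0.53, adjusted p = 0.00706 and 0.0230 in edgeR). WNT10B, a Wnt ligand that restrains adipogenesis, was higher in all tibia libraries, with 52, 46 and 47 reads in G1, G3 and T1 and 267, 338 and 231 in G2, G4 and T2 (-2.34 ± 0.27, adjusted p = 4.67e-05 in edgeR). NR1H3, the sterol-sensing nuclear receptor LXR alpha, was also higher in tibia (-0.99 ± 0.23, adjusted p = 0.0109 in edgeR). Of the adipokines and receptors, CDH13, LEPR and RBP4 were higher in tibia. DIO2, which activates thyroid hormone, was called among the brown and beige genes and higher in tibia (-1.21 ± 0.18, adjusted p = 0.000351 in edgeR). UCP1, which defines brown fat, had 0 reads in all macaque and rat libraries and 0 to 2 in mouse.

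**Figure D4:**
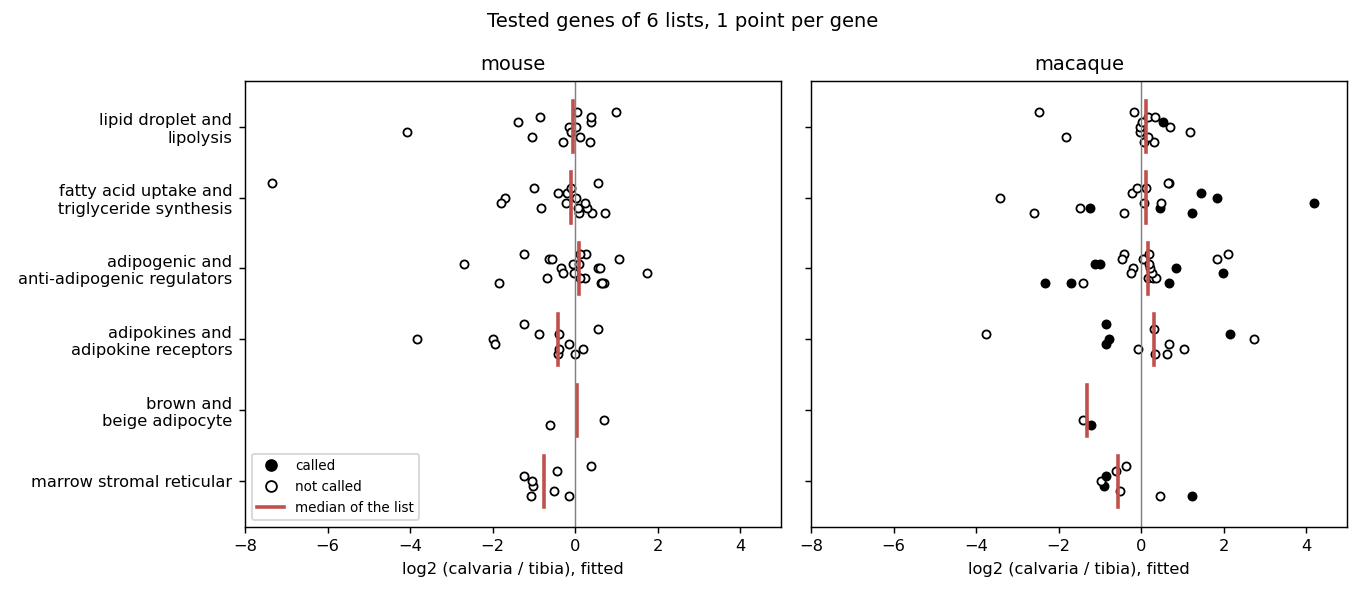
Fitted log2 ratio of calvaria to tibia for the tested genes of 6 lists in mouse (left) and macaque (right), 1 point per gene, filled where called, with the median of each list as a red bar. Fitted values of genes with few reads depend on the prior count. No gene was called in mouse, and 21 genes were called in macaque on both sides of 0.

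The summed level of the marrow stromal reticular list was higher in mouse tibia, the direction of ADIPOQ. It was 2202 to 2396 CPM in mouse calvaria and 3749 to 4108 in mouse tibia, and for 7 of 8 tested genes the tibia libraries stood above the calvaria libraries (median log2 ratio -0.76), as for 20.8% of all tested symbols, while none of the 8 was called among the tested symbols. CXCL12, the chemokine of this niche, had 12261 and 12174 reads in M4 and M8 and 33391 and 24637 in M5 and M7. In rat the sum was 2673 in calvaria and 4398 in tibia. In macaque the sum was 763 to 1128 in calvaria and 1012 to 1370 in tibia, and these ranges overlapped. In each assumed pair of libraries from 1 animal the tibia was higher. The sums were 1021 and 1283 in G1 and G2, 1128 and 1370 in G3 and G4, and 763 and 1012 in T1 and T2. The macaque median log2 ratio was -0.56, opposite in direction to macaque ADIPOQ. Macaque CXCL12 had a log2 ratio of 0.47 ± 0.35, which was not called. VCAM1 was higher in macaque calvaria (1.23 ± 0.25, adjusted p = 0.00425 in edgeR) and FOXC1 and LEPR higher in tibia (FOXC1 -0.89 ± 0.20, adjusted p = 0.00823 in edgeR).

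Between the species, 11 of the 73 list genes had a called difference of their log2 ratios, and for 10 of them the macaque ratio was above the mouse ratio, against 5.0% of all tested symbols called and 3.51% with the macaque ratio above. CXCL12 (difference 1.54 ± 0.42, adjusted p = 0.133), CD36 (1.12 ± 0.36, adjusted p = 0.186) and ANGPTL4 (1.89 ± 0.55, adjusted p = 0.158) were among them in edgeR's quasi-likelihood test. So were VCAM1 (1.40 ± 0.39, adjusted p = 0.147) and THRSP (6.08 ± 1.23, adjusted p = 0.0556) in the same test. These genes were named after their values were seen. THRSP had only 1, 0 and 1 reads in macaque tibia (G2, G4 and T2). Macaque CXCL12 had 54 to 103 reads per library, or 8.32 to 19.8 CPM, against 1166 to 2778 CPM in mouse. Macaque CD36 had 17 to 32 reads, or 2.80 to 5.54 CPM, against 173 to 361 CPM in mouse. WNT10B was the one with the lower macaque ratio (-2.97 ± 0.57, adjusted p = 0.0494 in edgeR).

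Markers of marrow and vessel cells moved with the sites as well. In macaque all 6 tested neutrophil genes and all 5 tested erythroid genes were called higher in calvaria, with a median log2 ratio of 2.44 for each list, and the erythroid sum was 2389 to 2840 CPM in calvaria against 463 to 683 in tibia. Macrophage genes were called higher in macaque calvaria for 4 of 9 and B cell genes for 3 of 4, against 14.1% of all tested symbols. The sums of these 2 lists overlapped between the macaque sites, at 817 to 1188 CPM in calvaria and 574 to 845 in tibia for macrophages and 464 to 589 and 506 to 547 for B cells. The neutrophil sum separated the T libraries too, with 90843 in T1 and 21376 in T2, where ADIPOQ differed by 1.03-fold. In mouse and rat the neutrophil sum was higher in calvaria, against the direction of ADIPOQ, with 134943 in rat calvaria and 68155 in rat tibia. The endothelial sum was 218 to 224 in mouse calvaria and 309 to 316 in mouse tibia and 389 and 751 in rat. In macaque the ranges overlapped (687 to 876 and 821 to 931), but in each assumed pair of libraries from 1 animal the tibia was higher, with 876 and 931 in G1 and G2, 859 and 885 in G3 and G4, and 687 and 821 in T1 and T2. Skeletal muscle genes summed to 19.4 in rat calvaria and 1773 in rat tibia, overlapped in mouse and stayed at 20.4 or less in macaque. The part of these cells in the values of the adipocyte genes was not tested.

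**Figure D5:**
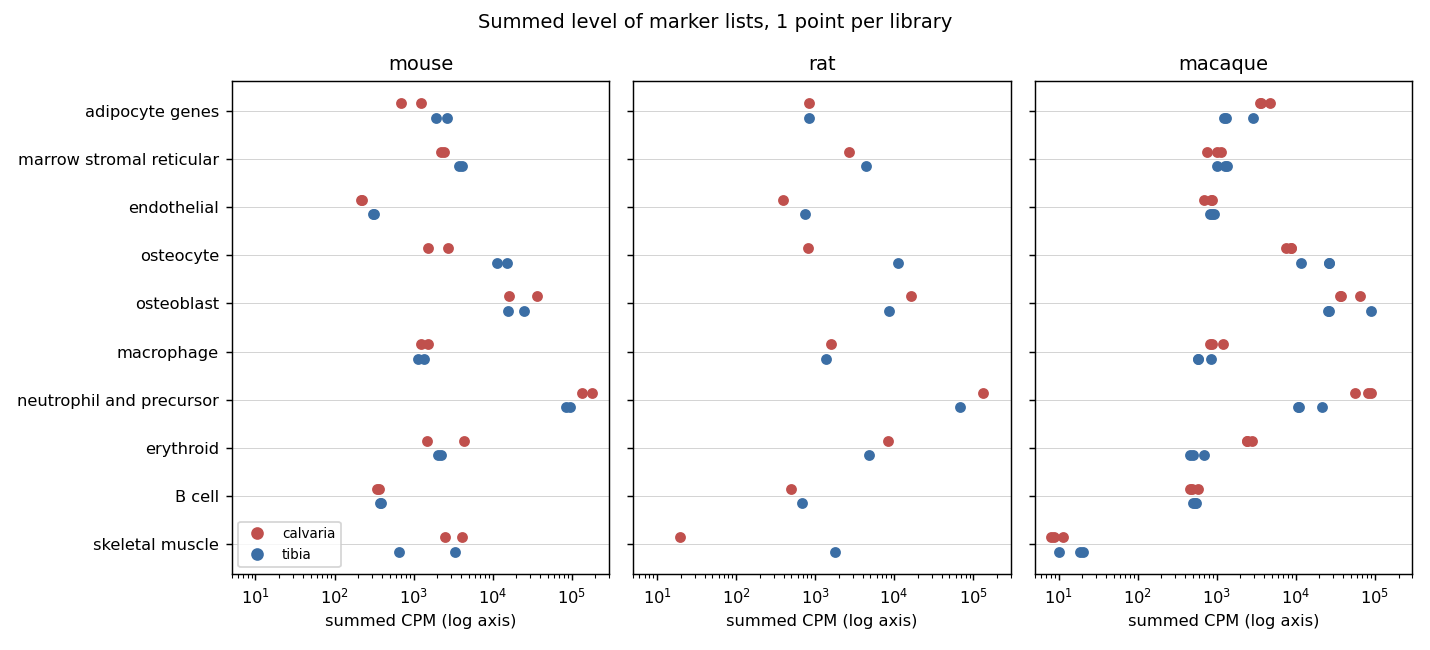
Summed CPM (log axis) of the adipocyte genes and of 9 marker lists in each library, calvaria in red and tibia in blue, with the macaque LOC rows counted among the adipocyte genes. The adipocyte sum was 688 to 1224 in mouse calvaria and 1923 to 2629 in mouse tibia, and 825 and 838 in rat. It was 3515 to 4794 in macaque calvaria and 1236 to 2874 in macaque tibia. The macaque sums include LOC721138, which could not be assigned to CFD, at 581 to 1044 in calvaria and 163 to 666 in tibia. FABP4 stood at 2505 to 3891 and 1031 to 2154 there.

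The genes whose pattern was most like that of ADIPOQ were ranked by Pearson's r over the 12 libraries, after the mean of each species was taken out, among 7935 tested symbols with a mean level of at least 1 CPM in each species. The 5 nearest were MEDAG (r = 0.933, Spearman's rho = 0.902), HBEGF (0.923 and 0.958), FABP4 (0.919 and 0.937), LXN (0.918 and 0.923) and ARAP2 (0.905 and 0.825). The points share libraries and depth, and these values are a description. MEDAG, known for promoting adipogenesis in culture, had log2 ratios of -2.58 in mouse, -0.48 in rat and 0.90 in macaque. Its macaque reads were few, 14, 18 and 6 in G1, G3 and T1 and 11, 0 and 13 in G2, G4 and T2, and the sites overlapped. Rat MEDAG had 10 reads in calvaria and 13 in tibia. PPARG ranked 67, LPL 400 and CEBPA 2262, the last with the macaque row LOC717153. Without the rat libraries, MEDAG was the 1 of these 5 that stayed among the 5 nearest, and FABP4 ranked 8.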

How the data were processed

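Poly(A)+ RNA of 12 libraries was sequenced. As deposited, each table holds raw counts of reads per gene and, beside them, a normalized signal of the authors per library, which was not used, and the exonic length of each gene, in bases, which the authors merged over isoforms. The methods of the study name HISAT2, whereas the submitters' processing notes list BWA 0.7.10-r789, with HTSeq and edgeR 3.16.5, so the aligner is uncertain. Counting ignored strand. No column of another sample was present.

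Rows without a gene name (0.00261% to 0.0663% of reads) were dropped, symbols were put in capitals and equal symbols summed, and the macaque LOC rows that RefSeq (T2T-MMU8v2.0) names uniquely were matched to the other species by that name. The tested symbols held 60.8% to 70.1% of reads. Mouse gene positions were read from GENCODE vM21 (GRCm38). Mouse (4 libraries), macaque (6) and both together, for the species by site term, were fitted in edgeR 4.0.16 (R 4.3.3) with TMM factors (0.956 to 1.05 in mouse, 0.939 to 1.07 in macaque). Common dispersions corresponded to biological coefficients of variation of 0.293 and 0.259. An SE is the log2 ratio divided by the square root of F. For rat, log2 ratios used 1 added read and no test. Intervals of ratios are exact 95% binomial intervals of the summed reads. DESeq2 1.42.0 and edgeR's exact test were alternatives. Figures and summaries used Python 3.11.15.

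The genes, the lists and the tests were chosen with earlier results of these data known. Named genes were all 10 adipocyte genes, the 2 called genes of each list with the smallest p in each direction, and the 5 nearest to ADIPOQ, and others are said to be named after their values were seen. Tibia and calvaria were paired by animal or pool according to the methods, without naming pairs, which were assumed by number. After removal of site means, assumed macaque pairs correlated with r of 0.173, 0.265 and 0.407 over 8591 genes, against -0.326 to 0.0795 for other pairs, and in mouse the check cannot tell pairs apart. Libraries of 1 site are separate pools or animals. The fits were tested on simulated data with 200 changed genes of a log2 change of 2. They recovered 191 in mouse over 10503 genes, 199 in macaque over 10448 and 138 for the species by site term. Unchanged genes made up 16.6%, 18.8% and 21.1% of calls. For the species by site term, 4 signs were wrong. Recovery in the real data may be lower. In mouse, CDH13 (log2 ratio -2.00) and EBF2 (-2.70) were not called among the tested symbols. The values of 1 list gene are not reported here, and counts over the lists include it.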

Additional observations from a re-analysis of the deposited data

Results flagged for a closer look

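For 3 genes the difference between the sites differed between macaque and mouse in the fit with a species by site term. Over all tested symbols, 5.0% were called in that fit. The macaque log2 ratio of calvaria to tibia was above that of mouse by 4.02 ± 0.63 for ADIPOQ, by 6.46 ± 2.02 for LEP and by 2.61 ± 0.57 for FABP4 (SE, 10 libraries). ADIPOQ was chosen on this contrast, so its value is a description. The value for LEP rests on 1 read in the mouse calvaria libraries and depends on the prior count. The differences for ADIPOQ were called in all 13 alternatives, those for FABP4 in 10 of 13 and those for LEP in 5 of 13. No test for outlying libraries was run, since no group held more than 3 libraries.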

How the results depend on the processing

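The log2 ratios of the adipocyte genes kept their direction in 106 of 108 alternative values in mouse, 113 of 113 in macaque, 65 of 65 for the species by site term and 50 of 50 in rat. The exceptions in mouse were CEBPA without calvaria library M8 (-0.33) and LPL without tibia library M5 (0.10), and without 1 library these genes ranged from -0.33 to 0.56 and from -0.64 to 0.10. Library size alone moved the median of all tested symbols by -0.12 (mouse) and -0.10 (macaque), and TMM factors moved rat by 0.20. Calls in mouse depended strongly on the setting. The 32 called symbols became 282 with DESeq2, 342 with the exact test, 510 over all symbols of the species, 17 with filterByExpr, 7 among symbols with reads in every library, 2 at a false discovery rate under 0.05, 63 with a replicate block for the assumed pairs and 78 for the other assumed pairs. The number of adipocyte genes called in mouse was 1, against 4 with DESeq2, 4 with the exact test, 5 over all symbols, 0 with filterByExpr, 0 with reads in every library, 0 at a false discovery rate under 0.05 and 2 with the replicate block for the assumed pairs, which added CFD, and 1 with the block for the other assumed pairs, where CFD was not called. Leaving out 1 library gave 9 to 5024 called symbols and 0 to 8 adipocyte genes in mouse, where the lone library of a site was assumed to vary like the others and the 8 were called without M4. In macaque 2812 symbols and 3 adipocyte genes were called, against 1325 and 1 at a false discovery rate under 0.05, and 1733 to 3612 and 1 to 3 without 1 library. The replicate block changed no call of an adipocyte gene in macaque. For the species by site term, 527 symbols and 3 adipocyte genes became 49 and 1 at a false discovery rate under 0.05, and 43 to 1329 and 1 to 3 without 1 library. In rat, 754 symbols past the threshold became 403 with 5 reads added, 2449 at a threshold of 1 and 1864 over all symbols, and the 2 adipocyte genes became 0 with 5 reads added. Of the 5 genes most like ADIPOQ, 1 was shared without the rat libraries. The cause of these changes was not tested. Totals of 49 reads or fewer at 1 or both sites limit LEP, PLIN1, PLIN4 and CIDEC in each species, and ADIPOQ (34 reads in tibia) and PPARG in macaque.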
